A study of Mus musculus with 26 samples.

Results

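The cytosolic ribosomal protein genes were followed through the open-chromatin peak lists of mouse pluripotent cells. The set held every protein-coding gene of the GRCm38.p6 annotation named Rpl or Rps with a number and at most 1 further letter, together with Rpsa, Rplp0, Rplp1 and Rplp2. It comprised 81 of 21883 protein-coding genes, 50 of the large subunit and 31 of the small subunit, spread over 19 chromosomes with 14 on chromosome 7 and 4 on X. The genes were short, with a median span of 3175 bp against 17170 bp over all protein-coding genes.

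Ribosomal proteins join ribosomal RNA to build the ribosome, the particle that translates messenger RNA, and each is needed in matched amounts in nearly every growing cell. Their genes are scattered over the genome, are transcribed at a high rate in dividing cells, and many begin transcription within a run of pyrimidines that lets their messages be translated together when nutrients allow (the TOP motif). Pluripotent stem cells divide fast, and an open promoter at these genes is the usual state in proliferating cells.

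ATAC-seq marks open chromatin by letting the Tn5 transposase insert sequencing adapters where DNA is accessible, here in 50000 cells a library. The first set of 18 libraries held 6 cultures with 3 libraries each: ES cells (naive embryonic stem cells) in 2iL at passage 16, 2 cultures of formative stem cells in A3XR (FS1 at passage 21 and FS2 at passage 29), and epiblast stem cells (EpiSC, the primed state), 1 culture in AF at passage 22 and 2 in AFX at passages 14 (AFX1) and 16 (AFX2). A further 8 libraries carried the name Rd2: 2 of ES cells in 2iL at passage 33, 4 of epiblast-like cells (EpiLC) made from ES cells over 2 days in AF with KSR and sorted for low GFP, and 2 of EpiSC in AFX at passage 16. Libraries of a group differ in the labels by a number alone, and separate cultures are not mentioned, so p-values measure the spread between these libraries, which may be technical. The EpiLC libraries are numbered 1.1, 1.2, 2.1 and 2.2. Whether those with the same first digit belong together is not stated, so they may not be 4 separate units.

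Each deposited list ranks its peaks by the strength of the call, so a gene was described by whether a peak lay at most 1 kb from either of its ends and by the percentile rank of the strongest such peak within its own list, with 100 for the strongest peak. In the first set the lists held 9570 ± 1463 peaks in ES cells (SD, n = 3), 27198 ± 3747 in FS1, 12968 ± 1176 in FS2, 20626 ± 4728 in AF EpiSC, 22193 ± 4941 in AFX1 and 27065 ± 2180 in AFX2. A longer list reaches weaker peaks, so the main comparison kept the 8044 strongest peaks of each list, the length of the shortest list (ES replicate 2). At that length, 11 naive marker genes had a peak in 48.5% of cases in ES cells, 25.8% in FS, 39.4% in AFX and 30.3% in AF EpiSC. For 8 formative markers the shares were 4.17%, 25.0%, 43.8% and 50.0%, so both EpiSC media stood above FS, and for 8 primed markers they were 8.33%, 10.4%, 18.8% and 29.2%. None of 6 fibroblast or feeder markers had a peak in ES cells or AF EpiSC at equal length, against 8.33% in FS and 13.9% in AFX EpiSC. In the lists as deposited the fibroblast or feeder markers reached 61.1% in FS1 and 16.7% in FS2. They reached 55.6% in AFX1, 44.4% in AFX2, 38.9% in AF EpiSC and 0% in ES cells. Over all protein-coding genes the shares, in the same order, were 52.8%, 35.2%, 50.1%, 52.9%, 47.2% and 23.7%. The part of other cells in the values below was not tested. In bulk samples, fewer cells with an open promoter and a less open promoter in each cell cannot be told apart.

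The sequences just before the starts of 5 members are shown because they cover the range of peak strength seen below, from Rpl37 with the highest mean rank to Rps9 with the lowest among members with a peak. Rpl11 was called between FS and AFX EpiSC, a call near the threshold. Rplp0 and Rps6 were added after their values were seen, Rplp0 for its strong peak without any of the 3 marked features and Rps6 because it holds all 3. Each run goes 5′ to 3′ on the gene's strand from 150 bases before the RefSeq start (GRCm38.p6) into its first 10 bases. Capitals mark the ETS core CCGGAAG, the palindrome made of TCTCG followed by its reverse complement CGAGA, and a pyrimidine run of at least 8 bases at the start.
Rpl37, chr15:5116463-5116622, plus strand: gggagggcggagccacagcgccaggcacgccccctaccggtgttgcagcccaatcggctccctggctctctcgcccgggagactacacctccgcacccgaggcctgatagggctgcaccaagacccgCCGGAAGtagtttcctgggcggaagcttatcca
Rplp0, chr5:115559317-115559476, plus strand: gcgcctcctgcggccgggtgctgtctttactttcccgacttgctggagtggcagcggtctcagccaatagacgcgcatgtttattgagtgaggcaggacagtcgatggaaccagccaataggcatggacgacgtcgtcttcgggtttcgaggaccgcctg
Rpl11, chr4:136053384-136053543, minus strand: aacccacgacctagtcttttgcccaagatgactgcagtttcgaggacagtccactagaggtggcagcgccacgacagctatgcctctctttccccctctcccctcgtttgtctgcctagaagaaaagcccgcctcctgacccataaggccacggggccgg
Rps6, chr4:86857358-86857517, minus strand: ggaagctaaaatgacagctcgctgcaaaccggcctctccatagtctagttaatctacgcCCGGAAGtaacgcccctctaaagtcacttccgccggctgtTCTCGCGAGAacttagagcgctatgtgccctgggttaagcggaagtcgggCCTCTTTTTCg
Rps9, chr7:3703891-3704050, plus strand: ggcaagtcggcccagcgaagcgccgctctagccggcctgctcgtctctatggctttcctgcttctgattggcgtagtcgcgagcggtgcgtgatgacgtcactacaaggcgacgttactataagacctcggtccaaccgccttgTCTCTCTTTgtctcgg

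A peak overlapped the Rpl37 and Rplp0 stretches in 18 of 18 lists of the first set, also among the 8044 strongest peaks. The Rpl11 stretch was overlapped in 16 lists as deposited and 6 at equal length, the Rps6 stretch in 9 and 2, and the Rps9 stretch in 9 and 1. Called peaks thus overlapped these stretches in very different numbers of lists although all 5 genes code for core ribosomal proteins. A stretch without a called peak may still be open below the caller's threshold, and the counts as deposited also depend on list length.

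At equal list length the ribosomal protein genes had a peak about as often as any protein-coding gene. The share with a peak was 22.2% ± 1.23 in ES cells (SD, n = 3), 26.3% ± 6.03 in FS (n = 6), 25.7% ± 4.65 in AFX EpiSC (n = 6) and 24.3% ± 2.57 in AF EpiSC (n = 3). Over all protein-coding genes the corresponding shares were 21.1%, 24.6%, 25.7% and 26.0%. The member shares of the 18 libraries lay between 14.8% (FS2 replicate 2) and 32.1% (FS1 replicate 3 and AFX1 replicate 3), and the ranges of the 4 cell types overlapped. Within FS, FS1 stood at 30.0% ± 1.89 and FS2 at 22.6% ± 6.8 (n = 3 each), with no overlap between the 2 cultures. The 3 FS1 libraries gave 29.6%, 28.4% and 32.1% and the 3 FS2 libraries 25.9%, 14.8% and 27.2%. All protein-coding genes did not overlap either, with 25.4%, 25.9% and 25.9% in FS1 and 23.5%, 22.6% and 24.0% in FS2. The lack of overlap was therefore not particular to the members. For the 61 members with a listed start, counting peaks within 1 kb of a start alone gave 22.4% in ES, 25.7% in FS, 27.0% in AFX and 24.6% in AF EpiSC, against 23.0%, 26.3%, 27.6% and 28.0% of all genes with a listed start.

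**Figure D1:**
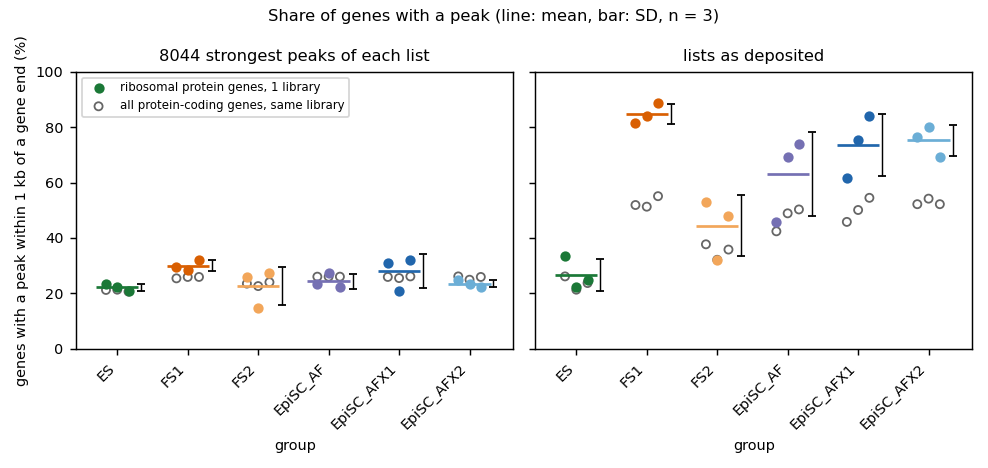
Share of ribosomal protein genes (filled points) and of all protein-coding genes (open points) with a peak at most 1 kb from either end, in percent, for each library of the first set, with the group mean as a line and the SD as a bar (n = 3); EpiSC_AF, EpiSC_AFX1 and EpiSC_AFX2 are the EpiSC cultures in AF and AFX. Left, the 8044 strongest peaks of each list, where both kinds of point lie together; right, the lists as deposited, where FS1 reaches 84.8% of ribosomal protein genes and ES cells 26.7%.

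The peaks of the ribosomal protein genes that had one were weaker and narrower than those of all protein-coding genes, and other housekeeping lists shared this in part. The median percentile rank at equal length was 45.7 ± 10.2 in ES cells, 46.4 ± 9.98 in FS, 44.6 ± 6.68 in AFX EpiSC and 38.8 ± 11.9 in AF EpiSC, against 55.8, 53.2, 55.7 and 55.4 over all genes with a peak. It was lower than that of all genes in 17 of 18 libraries, the other being FS2 replicate 2 with 63.4 against 51.5. The median peak width was 249 bp against 312 bp in ES cells, 299 against 354 in FS, 313 against 410 in AFX EpiSC and 355 against 385 in AF EpiSC. In each of the 18 libraries the median width of member peaks was below that of all genes, with ratios from 0.707 to 0.987. Proteasome subunits had median ranks of 50.0, 43.4, 37.9 and 38.5 in ES, FS, AFX and AF cells and width ratios down to 0.757 (AFX), and oxidative phosphorylation subunits had ranks of 47.8, 41.2, 43.7 and 40.3. Translation factors had ranks of 47.5, 44.7, 46.3 and 49.4, and ribosome biogenesis factors 43.6, 49.1, 52.8 and 40.2. Mitochondrial ribosomal protein genes had 57.7, 53.5, 51.0 and 52.9, above all genes in ES and FS cells. The 8 ribosomal genes whose names fall outside the rule had 60.7, 64.4, 76.4 and 54.5, above all genes except in AF EpiSC. Low ranks were thus seen in some of the other lists and not in all. These are descriptions of the lists, with no test.

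In the lists as deposited, which reach further down, the ribosomal protein genes had a peak far more often than other genes in the cultures with long lists. FS1 reached 84.8% ± 3.77 of members against 52.8% of all genes, AFX EpiSC 74.5% ± 7.99 against 51.5%, AF EpiSC 63.0% ± 15.2 against 47.2%, FS2 44.4% ± 11.0 against 35.2%, and ES cells 26.7% ± 5.83 against 23.7%. Single libraries ran from 22.2% in ES replicate 2 and 32.1% in FS2 replicate 2, the shortest list of each of these cultures, to 88.9% in FS1 replicate 3, the longest list of all. The share therefore moved with the list's length, and an order of cell types cannot be read from these shares. Cutting the lists of FS1 and the EpiSC at their common shortest length of 15505 peaks gave 64.2% ± 3.27 in FS1, 51.2% ± 4.67 in AFX EpiSC and 53.1% ± 7.41 in AF EpiSC, against 40.2%, 40.6% and 41.2% of all genes. The lowest FS1 library (60.5%) lay above the highest AFX library (55.6%) and level with the highest AF library (60.5%).

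**Figure D2:**
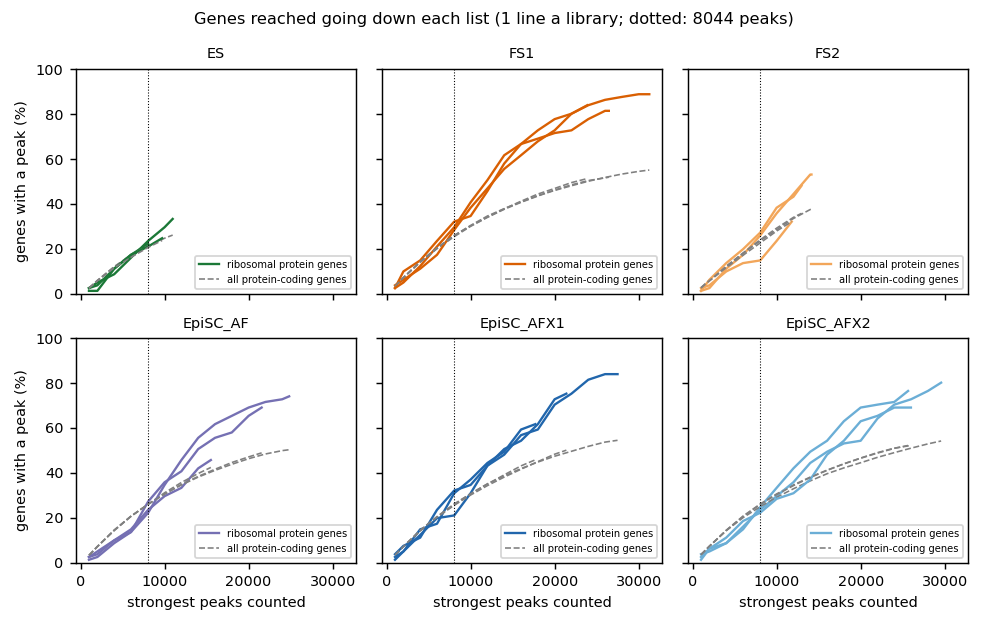
Share of ribosomal protein genes (solid lines) and of all protein-coding genes (dashed lines) with a peak, in percent, as more of each list's strongest peaks are counted, 1 line a library and 1 panel a culture. The solid lines lie near the dashed ones up to the dotted line at 8044 peaks and rise above them in the rest of the long lists.

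Other genes needed in all growing cells also had peaks more often than all genes, to differing degrees. In FS1 as deposited, 76.9% ± 3.39 of 78 mitochondrial ribosomal protein genes, 85.4% ± 2.39 of 64 translation initiation and elongation factors, 86.3% ± 3.92 of 39 proteasome subunits, 78.8% ± 6.25 of 80 oxidative phosphorylation subunits and 85.7% ± 7.56 of 35 ribosome biogenesis factors had a peak. At equal length the FS1 shares of these lists were 33%, 46.4%, 38.5%, 33% and 38.1%, above the 30.0% of the ribosomal protein genes in each case, and the differences were not tested. Of 8 genes that code for ribosomal proteins or their close relatives under other names, among them Rps3a1, Fau and Rack1, 62.5% ± 12.5 had a peak in FS1 as deposited. Of 310 annotated ribosomal protein pseudogenes, most of them copies of processed messages without a promoter of their own, 1.83% ± 1.04 had a peak in FS1 as deposited.

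Members differed widely from each other. Among the 8044 strongest peaks, 4 members had a peak in every one of the 18 lists, 17 in at least 9, 36 in at least 3, 23 in 1 or 2, and 22 in none; 4.94% of members were in every list against 5.86% of all genes, and 27.2% were in none against 51.1%. In the lists as deposited, 7 members had a peak in every list, 60 in at least 9 (74.1% of members against 48.5% of all genes), and 6 in none. Large-subunit and small-subunit genes had a median of 12 lists as deposited each. The 29 members with the end of another protein-coding gene within 1 kb and the 52 without also had a median of 12 lists each.

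**Figure D3:**
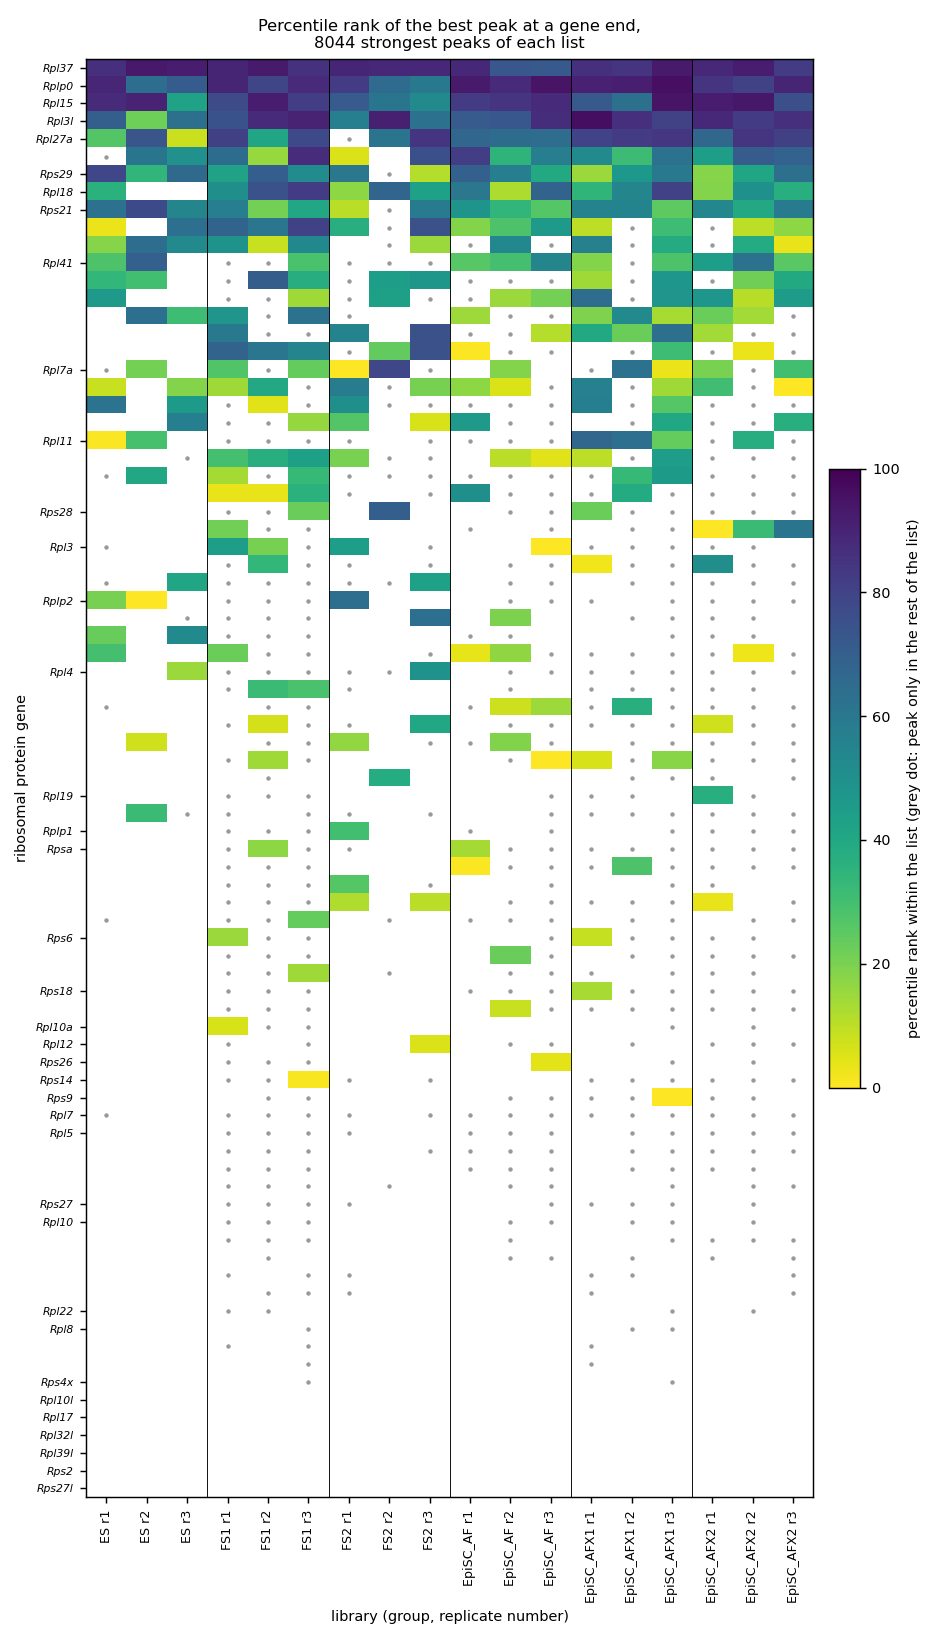
Percentile rank of the strongest peak lying at most 1 kb from either end among the 8044 strongest peaks of each of 18 lists (colour; columns are libraries, rows the 81 ribosomal protein genes by mean rank, labelled where described by name). White cells have no peak and grey dots mark a peak found only in the rest of the list; 4 genes are coloured in all columns and 22 in none.

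The strongest peaks belonged to Rpl37, a zinc-binding protein of the large subunit, with a mean rank over the 18 lists of 87.0, and to Rplp0, the base of the large subunit's stalk to which the acidic P1 and P2 proteins bind, with 83.2. Rpl37 lay at 86.7, 93.3 and 91.8 in the ES libraries, 89.5, 92.6 and 85.7 in FS1, 89.8, 88.7 and 88.8 in FS2, 88.3, 73.0 and 72.2 in AF EpiSC, 86.5, 84.5 and 92.9 in AFX1 and 88.5, 92.1 and 82.1 in AFX2. It was high in every library, lowest in AF replicates 2 and 3. Rplp0 lay at 89.1, 64.0 and 70.8 in ES cells, 89.7, 79.1 and 88.1 in FS1, 82.5, 65.2 and 59.6 in FS2, 92.8, 87.8 and 94.7 in AF EpiSC, 91.0, 91.7 and 96.0 in AFX1 and 84.9, 80.6 and 89.6 in AFX2. Its EpiSC values ran higher than most of its ES and FS2 values with overlap, and the difference from ES cells did not pass limma's test across all genes (adjusted p = 0.133 for AFX and 0.139 for AF EpiSC).

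Rpl15, a large-subunit protein, had a mean rank of 77.9 and a range from 42.4 (ES replicate 3) to 94.6 (AFX1 replicate 3). Rpl27a, also of the large subunit, had a mean of 62.7 and a peak in 17 of 18 lists at equal length, with 26.6, 73.5 and 8.04 in ES cells and 79.9, 82.8, 84.3, 67.0, 84.7 and 81.0 in AFX EpiSC. Only ES replicate 2 reached the AFX range, and the difference missed the threshold in limma's test (adjusted p = 0.0702). Rps29 and Rps21, both of the small subunit, also had a peak in all 18 lists as deposited and in 17 at equal length.

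**Figure D4:**
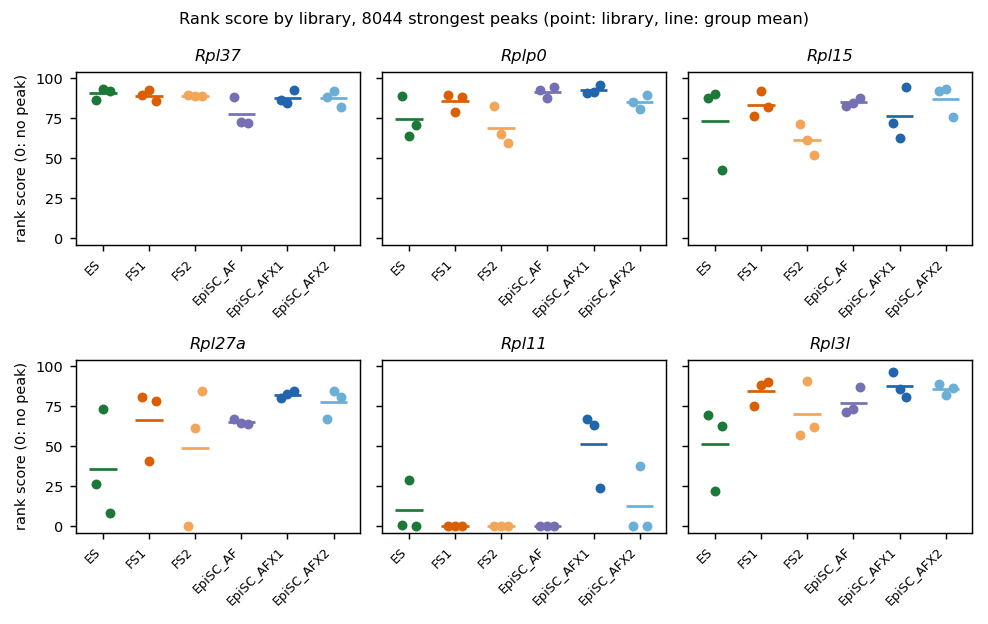
Rank score of 6 ribosomal protein genes in each library of the first set (points; 0 means no peak among the 8044 strongest) with the mean of each culture as a line. Rpl37 stays between 72.2 and 93.3, Rpl15 runs from 42.4 in ES replicate 3 to 94.6 in AFX1 replicate 3, and Rpl11 is at 0 in all FS and AF libraries.

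At the other end, the members with the lowest mean rank among those with any peak were Rps9, Rps14, Rps26, Rpl12 and Rpl10a, each with a peak in 1 of 18 lists at equal length. As deposited they had a peak in 9, 11, 6, 9 and 5 lists. The 22 members with no peak at equal length in any list included Rpl5, Rpl22, Rps4x, Rpl10, Rps2, Rpl17, Rpl8 and Rpl7. Rpl7 shows how weak peaks accumulate: it had a peak in 15 of 18 lists as deposited, at ranks up to 45.4 (FS1 replicate 1), and the median width of 705 bp was the widest of all members with a peak.

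Several proteins with well-known roles, chosen for those roles, spanned a wide range of values. Rpsa, a small-subunit protein also known as a laminin receptor precursor, had a peak in 13 of 18 lists as deposited and 2 at equal length. The stalk proteins Rplp1 and Rplp2 had 10 and 13 lists as deposited and 1 and 3 at equal length, against 18 and 18 for Rplp0, to which they bind. Rpl3, which lies near the peptidyl transferase centre, had 12 and 4. Rpl5 and Rpl11, which join the 5S ribosomal RNA and can bind the ubiquitin ligase Mdm2, had 12 and 16 as deposited and 0 and 6 at equal length. Rps6, whose protein is phosphorylated by S6 kinases, had 9 and 2. The X-linked Rps4x and Rpl10 had 2 and 8 lists as deposited and none at equal length.

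The paralogs differed from each other. Rpl10l, an intronless copy used in the testis, and Rpl39l, also of germ cells, had no peak in any of the 18 lists, nor did Rpl32l. Rpl3l, the muscle paralog of Rpl3, appeared to have a strong peak in every list, with a mean rank of 76.1. That peak lay past the 3′ end of Rpl3l, which ends at chr17 position 24736143; in FS1 replicate 1 it covered chr17:24736385-24736799. Its centre was a median of 57.8 bp from the start of the neighbouring gene Msrb1 and closer to that start than to a start of Rpl3l in 18 of 18 lists, and no list had a peak within 1 kb of a listed Rpl3l start. Rps27l, a paralog of Rps27, had no peak within 1 kb of its outermost ends but a peak at a listed start inside the annotated span in 16 of 18 lists as deposited.

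Most member peaks sat just before the gene's start. Of 56 members with a listed start and a peak in at least 1 list as deposited, the median distance of the peak's centre from the start was within 250 bp for 44 and upstream of it for 37 of these, and the median over members was -45.1 bp. In single libraries 68.4% to 92.3% of member peaks lay within 250 bp of the start, against 72.9% to 77.4% over all genes. The peaks of 10 of these 56 members lay closer to another protein-coding gene's start than to their own in most of their lists. These were Rpl3l (Msrb1), Rpl18 (Sphk2, 72.0 bp from its start), Rpl4 (Snapc5, 85.5 bp), Rpl41 (Zc3h10, 128 bp), Rpl19 (Cacnb1, 102 bp), Rps18 (B3galt4, 183 bp), Rpl7a (Med22, 37.0 bp), Rpl12 (Lrsam1, 40.5 bp), Rps28 (Ndufa7, 28.0 bp) and Rpl22 (Chd5, at 5527.8 bp and so near no start). For Rpl7a, Rpl12 and Rps28 the member's own start was also close, at medians of 138, 83.5 and 30.5 bp, so the peak cannot be assigned to either gene.

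The reverse also occurred. Rpl22, Rps27l and Rps2 had a peak within 1 kb of a listed start in 17, 16 and 12 of 18 lists as deposited but in 4, 0 and 0 within 1 kb of their outermost annotated ends; each has a listed start more than 1 kb inside its outermost annotated ends. Counted at the start, 57 of 61 members had a peak in at least 1 list and 44 in at least 9. Rpl4, Rpl18 and Rpl19 had a peak at a listed start in 2 lists each.

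**Figure D5:**
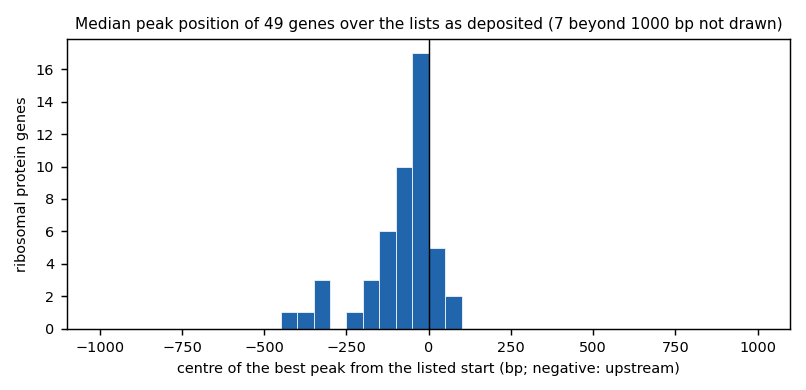
Number of ribosomal protein genes by the median position of the peak's centre relative to the listed start, in bp (negative values lie upstream), in bins of 50 bp. The 49 genes drawn cluster just upstream of the start; the 7 genes beyond 1000 bp are left out of the plot.

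The promoters of the members were richer in some short motifs than those of other genes. In the 300 bases from 250 before to 50 after a listed start, searched on both strands, the ETS core CCGGAAG was present in 41.0% of 61 members and 12.9% of 17491 protein-coding genes, and the palindrome marked in Rps6 in 9.84% and 0.755%. A pyrimidine run of at least 8 bases on the gene's strand, touching the 5 bases on either side of the start, was present in 39.3% and 11.5%. The GC box GGGCGG was found in 59.0% and 49.2%, AAGATGGC (the YY1 core) in 8.2% and 3.57%, the NRF1 motif (GCGCA followed at once by TGCGC) in 3.28% and 1.47% and the E-box CACGTG in 9.84% and 8.91%. The TATA box TATAAA was in 11.5% and 14.8%, and CCAAT in 31.1% and 42.3%. GC content was alike, with medians of 56.7% and 56.3%. The 25 members with CCGGAAG had a peak in a median of 13 lists as deposited and the 36 without in 10.5; with and without the pyrimidine run the medians were 12.5 and 12. Matches of different motifs may overlap. A match is a run of letters in this window and shows no binding.

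Between cell types, few members differed in rank score, the percentile rank at equal length with 0 for no peak. limma was fitted to all 8244 protein-coding genes with a peak in at least 3 of 18 lists, of which 36 were members; a member that passed this filter through 1 cell type alone had to differ, so these 36 are not all members. Differences are in percentile points and p-values are Benjamini-Hochberg adjusted over the 8244 genes. ES cells against FS called 1 member where 9.76% of all genes tested were called, ES against AFX EpiSC 1 member where 12.0% were called, and ES against AF EpiSC 0 members where 8.33% were called. FS against AFX EpiSC called 2 members (3.09% of all genes), FS against AF EpiSC 1 (3.23%), and AF against AFX EpiSC 0 (0.0607%). Between cultures of a type, FS1 against FS2 called 0 members (8.83% of all genes) and AFX1 against AFX2 called 0 (0.655%).

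In the 3 comparisons with ES cells limma thus called 2.78%, 2.78% and 0% of the 36 members, below the background share in each. At an unadjusted limma p under 0.05 the member counts of the 8 comparisons, in the same order, were 5, 4, 4, 7, 5, 2, 3 and 3 of 36. As shares these were 13.9%, 11.1%, 11.1%, 19.4%, 13.9%, 5.56%, 8.33% and 8.33%, against 24.0%, 25.7%, 22.3%, 17.2%, 17.8%, 5.96%, 21.1% and 11.5% of all genes tested. The exact permutation test of each gene, two-sided, called no gene in any comparison, with 1, 3, 0, 2, 2, 1, 0 and 0 members at an unadjusted p under 0.05; the smallest adjusted p of any gene was 0.122, so a missing call in this test says nothing about a member. With 3 libraries against 3 the exact permutation test cannot go below p = 0.1, with 3 against 6 below 0.0119 and with 6 against 6 below 0.00216.

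The related lists were read from the same limma fit, in both directions together. In ES against FS, 2 of 34 tested mitochondrial ribosomal protein genes, 4 of 42 translation factors, 1 of 22 proteasome subunits, 4 of 44 oxidative phosphorylation subunits and 2 of 19 ribosome biogenesis factors were called. These were 5.88%, 9.52%, 4.55%, 9.09% and 10.5% of the genes tested in each list, against 9.76% of all genes tested. In ES against AFX EpiSC the counts were 0, 5, 0, 4 and 3 (0%, 11.9%, 0%, 9.09% and 15.8%, against 12.0% of all genes). In FS against AFX EpiSC they were 1, 2, 0, 2 and 0 (2.94%, 4.76%, 0%, 4.55% and 0%, against 3.09%). The members' counts in these 3 comparisons were 1, 1 and 2 of 36, and differences between the lists were not tested. None of the 3 tested ribosomal genes outside the naming rule was called in any of the 8 comparisons.

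Rpl11 was called between FS and AFX EpiSC. Its scores were 0 in all 6 FS and all 3 AF libraries, 66.8, 63.5 and 23.8 in AFX1, 0, 37.6 and 0 in AFX2 and 0.497, 29.1 and 0 in ES cells. The 3 AFX1 libraries and AFX2 replicate 2 were high, and the other AFX2 libraries were at 0 like FS. The difference of AFX1 minus AFX2 was 38.9 points and was not called (SE 12.3, limma adjusted p = 0.189). The score was lower in FS than in AFX EpiSC by a difference of -31.9 points (SE 8.66, limma adjusted p = 0.0479). Rpl11 passed the filter of at least 3 lists only through the AFX EpiSC libraries, where it was high. A difference was thus built into its selection, and this p-value is not independent support for one. As deposited, Rpl11 had a peak in 16 lists, at 60.4, 59.5, 67.1, 42.7, 0 and 0.255 in FS and 84.9, 86.3, 77.7, 52.1, 83.0 and 62.6 in AFX EpiSC, with a difference of -36.1 (limma adjusted p = 0.032). The 0 and 0.255 were in FS2, whose lists held a mean of 12968 peaks against 24629 in AFX EpiSC. FS1 overlapped AFX2. List length and cell type cannot be told apart in this difference. As deposited this comparison called 2.74% of members tested against 5.93% of all genes tested. The call at equal length lay near the threshold and was lost without any 1 of 15 libraries, all but AFX1 replicate 3 and ES replicates 1 and 2 (adjusted p between 0.0159 and 0.121 over the 18 libraries left out). It was also lost when peaks were ranked by fold enrichment (limma adjusted p = 0.0582), counted at the start alone (0.0521) or by presence (0.113), and with the looser filter of 1 list (0.0724). The Rpl11 promoter printed above holds none of the letters marked.

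The call for Rpl3l, in ES against AFX EpiSC, rested on the peak at the Msrb1 start and not on a ribosomal protein gene's own start. The peak counted for Rpl3l scored 69.6, 21.9 and 62.9 in ES cells and 96.3, 86.0, 80.6, 88.7, 82.3 and 86.6 in AFX EpiSC, with no overlap. The difference of ES minus AFX EpiSC was -35.3 points (SE 9.36, limma adjusted p = 0.0172), and without ES replicate 2 it fell to -20.5 and was no longer called (adjusted p = 0.14). The presence of the peak did not differ, as every ES and AFX list holds it.

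In the lists as deposited, where 73 members and 12853 genes could be tested, more members were called, in the direction of the longer lists. ES cells were lower than FS at 18 of 73 members (24.7%; 27.5% of all genes tested), lower than AFX EpiSC at 34 (46.6%; 51.9%) and lower than AF EpiSC at 10 (13.7%; 31.0%), and higher at none. FS1 was higher than FS2 at 28 of 73 (38.4%; 29.5%) and lower at none. Each of these differences goes with list length, and the length cannot be told apart from the cell type in these lists.

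The Rd2 libraries, whose shortest peak was 110 bp against 150 bp in the first set, were described on their own. Their ES lists held 471 and 2576 peaks and covered 1.23% and 11.1% of the ribosomal protein genes, against 1.58% and 9.7% of all genes. The shorter of them had a peak at 1 member, Rpl37, at rank 83.7. Among the 7469 strongest peaks, the EpiLC libraries covered 23.5%, 27.2%, 27.2% and 22.2% of members, against 22.2% to 25.0% of all genes. The AFX EpiSC libraries covered 40.7% and 32.1%, against 25.4% and 25.0%. Both AFX libraries lay above all 4 EpiLC libraries, which is given as a description with no test. The AFX EpiSC of the first set did not show such an excess at equal length, with 25.7% of members and 25.7% of all genes. As deposited the EpiLC shares were 39.5%, 71.6%, 27.2% and 74.1% with lists of 10563, 23608, 7469 and 26045 peaks, again following the length. The AFX shares as deposited, 50.6% and 44.4% with lists of 11252 and 10719 peaks, lay within the EpiLC range. Rpl37 had a peak in all 8 Rd2 lists and Rplp0 in 7.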

How the data were processed

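ATAC-seq peak lists of 26 libraries were used, 451563 peaks in all. Per the submitters' processing notes, Trim Galore, Bowtie, Picard and MACS2 were used with mm10; their roles, versions and settings are not given in the sources used here. The deposited lists give for each peak a display score, a fold enrichment over background (a ratio), and −log10 values of p and of q; the authors' values were used to rank or filter peaks within a list alone. Read depth is unknown, so no counting interval was given. Gene positions and promoters came from RefSeq tables of GRCm38.p6 (the same chromosomes as mm10); 61 of 81 members matched a promoter entry, and 20 did not, among them Rpl3, Rpl7, Rplp1, Rps14 and Rps29.

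The rank score is the percentile rank by −log10 p of the strongest peak within 1 kb of a gene end among the 8044 strongest peaks of a list, 0 without one. limma 3.58.1 in R 4.3.3 fitted 1 mean per culture over the 18 libraries (moderated with a trend, genes with a peak in at least 3 lists) and 8 contrasts, where FS and AFX EpiSC each average 2 cultures; p-values were adjusted over all genes tested, with a threshold of 0.05. On simulated shifts in ES against FS over 8244 genes, the fit recovered 2.5%, 40.5% and 82.5% of 200 genes shifted by 20, 40 and 60 points. Of the genes it called, 16.7%, 6.9% and 4.07% had not been shifted. The simulation drew a normal spread around each gene's mean and shifted genes upward in ES cells. Real scores hold many zeros, so it does not give the recovery for them or for downward shifts. At most 0.0746% of peaks had identical coordinates in 2 libraries of 1 group, so none was counted as a repeat. Alternatives were the whole lists, ranking by fold, other distances, the start alone, a filter at 1 list, presence of a peak, a −log10 q of at least 5, a permutation test, a replicate block and leaving out each library; lists of 15505 peaks and whole gene spans were chosen after seeing the data. The members, gene lists and tests were chosen with earlier results of these data known. Named genes are the members called, the 5 highest and lowest by mean score, up to 10 without a peak at equal length, and members chosen by role; Rpl7, Rpl8, Rps29, Rps21, Rps2 and the genes with a neighbour's peak were chosen after their values were seen. Some items that the rule names, members called in some comparisons among them, are not reported here.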

Additional observations from a re-analysis of the deposited data

Results flagged for a closer look

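The share of ribosomal protein genes with a peak at equal list length was far lower in 1 FS library than in the other 5. FS2 replicate 2 had 14.8%, and the gap to the next library made up 0.643 of the range of the 6 libraries. The same list had the highest median rank of its members with a peak, 63.4, and was the shortest of the FS lists at 11796 peaks. Of 13 sets of values examined this way, each over 4 to 6 libraries, 1 stood out, where chance alone gives about 1 in 20 of such sets. Only FS, AFX EpiSC and the Rd2 EpiLC hold that many libraries, so the sets share libraries and are not independent.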

How the results depend on the processing

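Values are given as setting changes against the main result. Members called in ES against FS, 1, became 18 in the lists as deposited, 2 with genes peaked in at least 1 list, and 0 when ranked by fold enrichment, at the start alone or by permutation, a test that called no gene of any kind in any comparison. In ES against AFX EpiSC, 1 became 34 as deposited, 2 by fold or with the looser filter, and 0 at the start alone or by permutation. In ES against AF EpiSC, 0 became 10 as deposited and 1 by presence of a peak. In FS against AFX EpiSC, 2 became 0 by fold, at the start alone, with the looser filter, by permutation and by presence; in FS against AF EpiSC, 1 became 0 under the same 5 settings and with the replicate block. FS1 against FS2 went from 0 to 28 as deposited and 1 with the looser filter, and AFX1 against AFX2 from 0 to 1 by presence. By presence the Rpl3l difference was 0, as each ES and AFX list holds its peak. Leaving out single libraries, the counts ranged from 0 to 2 (ES against FS), 1 to 2 (ES against AFX), 0 to 1 (ES against AF), 0 to 2 (FS against AFX), 0 to 1 (FS against AF), 0 to 2 (FS1 against FS2) and 0 to 1 (AFX1 against AFX2). As deposited, limma called 24.7%, 46.6% and 13.7% of 73 members in ES against FS, AFX and AF EpiSC. Of all genes tested it called 28.3%, 52.3% and 31.2%. In FS1 against FS2 as deposited the shares were 38.4% of members and 29.7% of all genes. Apart from permutation, no share over all genes is given for the other changed settings, so their counts show nothing particular to the members.

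The share of members with a peak, 22.2% in ES, 26.3% in FS, 25.7% in AFX and 24.3% in AF EpiSC, became 26.7%, 64.6%, 74.5% and 63.0% as deposited. Ranking by fold gave 20.2% in ES and 19.8% in AF. With a −log10 q of at least 5 it was 1.65% in ES, 16.5% in FS and 17.7% in AF, and at 15505 peaks 51.2% in AFX and 53.1% in AF. In Rd2, 25.0% in EpiLC and 36.4% in AFX became 53.1% and 47.5% as deposited. The q filter left 2, 1 and 1 members with a peak in the ES libraries and 2 in each FS2 library. Over all genes it left 2.49%, 1.59% and 2.54% in the ES libraries. Ranks and width ratios in ES with this filter thus describe 1 or 2 genes a library and no shift of the gene set. The median rank moved from 45.7 to 24.1 in ES with the q filter, and as deposited from 44.6 to 54.1 in AFX and from 38.8 to 53.4 in AF. The width ratio moved in ES from 0.799 to 0.762 at the start alone, 0.992 with the q filter and 0.842 over whole spans, in FS from 0.851 to 0.969 with the q filter, and in AF from 0.923 to 0.858 as deposited and 0.868 at 15505 peaks. The cause of these moves was not tested, except that a cut list holds fewer peaks.

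Libraries share only a replicate number: deviations of same-numbered libraries correlated at a median of 0.00261 (45 pairs, from -0.0423 to 0.0339). Of 18 libraries, 11 lay closest to their own number among the 3 numbers. Some would do so by chance, and whether 11 is more than chance gives was not tested. With the replicate block, limma called 0 members in FS against AF EpiSC in place of 1, and no other count of members called changed. Peak lists carry no read depth, which limits every statement to presence and rank within a list; a member without a peak may be open below the caller's threshold.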
